A study of Homo sapiens with 12 samples.

Results

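Adenylate kinases, AMP deaminases, the enzymes that form and remove adenosine and an adenosine receptor were followed as mRNA in RCC4 cells, a human line established from a clear cell renal carcinoma, whose VHL is not functional. The 9 genes were taken by their symbols from the 23106 symbols counted in each library: AK1, AK3, AK4, AMPD2, AMPD3, ADA, ADK, NT5E and ADORA2B. Bulk polyA RNA was sequenced 48 h after transfection with siRNA pools, in 4 groups of 3 replicates. Every dish held a total of 2 nM siRNA: control dishes had 2 nM control siRNA, each single knockdown had 1 nM of the HIF1A or the HIF2A pool with 1 nM control siRNA, and the double knockdown had 1 nM of each HIF pool and no control siRNA. The HIF2A pool targets EPAS1, which encodes HIF-2α. All 12 libraries came from the same line, grown at normal oxygen, and the VHL defect was shared by the control dishes. The study used the single knockdowns to separate target genes of HIF-1 from those of HIF-2. It defined them with DESeq2, at a looser adjusted p than the limit of 0.05 used here, and with a limit on fold change. Conditions were paired by biological replicate in the study. Beyond numbered replicates, the labels do not say whether these were separate cultures or separate days. The p-values therefore measure the spread between these libraries. A lower level per cell cannot be told apart from a loss of cells that expressed the gene.

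Adenylate kinases move phosphate between adenine nucleotides, 2 ADP molecules giving ATP and AMP, and so couple the AMP level of a compartment to its energy state. AMP leaves this pool by deamination to IMP (AMP deaminases) or by dephosphorylation to adenosine (5′-nucleotidases), and adenosine is deaminated by ADA, returned to AMP by ADK or sensed outside the cell by the ADORA receptors. In clear cell renal carcinoma, loss of VHL stabilizes HIF-α subunits in the presence of oxygen, and genes of extracellular adenosine formation and of mitochondrial AMP metabolism are among those known to respond to hypoxia.

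The windows of 250 bases before the transcription start are shown for AK4, AMPD3 and NT5E, the 3 genes of the 9 that fell in the double knockdown against control siRNA, since HIF binds DNA at the core letters ACGTG or GCGTG. The sequences are those of RefSeq on GRCh38.p14, read on the strand of the gene from the start farthest upstream. Capitals mark ACGTG and GCGTG on either strand (CACGT and CACGC on the printed strand).
AK4, chr1:65147302-65147551, plus strand: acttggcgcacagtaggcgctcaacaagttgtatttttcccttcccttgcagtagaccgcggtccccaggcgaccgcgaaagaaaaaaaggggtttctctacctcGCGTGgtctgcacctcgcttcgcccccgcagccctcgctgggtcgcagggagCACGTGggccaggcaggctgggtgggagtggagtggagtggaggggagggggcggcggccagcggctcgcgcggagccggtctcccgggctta
AMPD3, chr11:10450441-10450690, plus strand: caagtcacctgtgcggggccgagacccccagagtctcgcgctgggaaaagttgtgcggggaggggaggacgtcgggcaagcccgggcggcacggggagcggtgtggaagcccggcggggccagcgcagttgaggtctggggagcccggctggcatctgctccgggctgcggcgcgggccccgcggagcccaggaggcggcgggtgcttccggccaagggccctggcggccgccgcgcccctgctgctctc
NT5E, chr6:85449833-85450082, plus strand: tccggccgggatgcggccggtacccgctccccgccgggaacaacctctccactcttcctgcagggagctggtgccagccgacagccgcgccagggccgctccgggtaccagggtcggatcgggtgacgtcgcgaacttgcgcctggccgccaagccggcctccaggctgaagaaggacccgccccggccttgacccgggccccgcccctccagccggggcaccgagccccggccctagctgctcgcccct
The AK4 window held GCGTG 145 bases before the start and the palindrome CACGTG, which counts as a match on each strand, 93 and 92 bases before it. The windows of AMPD3 and NT5E held no match, and 1 of the 4 annotated starts of AMPD3 did. All 9 genes were found in the RefSeq table, and 5 of them had a match at the start farthest upstream (AK1, AK4, AMPD2, ADA and ADORA2B). Over all starts in the table, 15172 of 35116 windows of this length had one (43.2%), so a match describes the letters only. The counts give no starts, and which start RCC4 cells used was not tested.

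Libraries held 13263168 to 20451433 counts in total, and values are given as CPM, counts scaled to a common library size with the TMM factors of edgeR. The targeted genes followed the labels. With control siRNA the HIF1A mRNA averaged 96.7 ± 33.6 CPM (SD, n = 3), and it averaged 18.3 ± 3.62 under the HIF1A pool, 121 ± 13.3 under the HIF2A pool and 28.7 ± 4.09 in the double knockdown. EPAS1 mRNA averaged 157 ± 16.9, 114 ± 17.7, 10.1 ± 1.53 and 8.94 ± 2.16 CPM in the same order. HIF1A mRNA thus stood higher in the double knockdown than with HIF1A siRNA in all 3 replicate pairs, at 134 to 180% (log2 fold change 0.66, standard error 0.21, edgeR adjusted p = 0.18). CA9, a known HIF-1 target, fell from 226 ± 73.2 to 18.7 ± 8.69 CPM (SD, n = 3) with HIF1A siRNA. All 6 renal epithelial and clear cell carcinoma markers listed (PAX8, PAX2, KRT8, KRT18, CDH2 and CA9) were above 1 CPM, and their sum was 1219 to 1665 CPM. None of 4 endothelial markers reached 1 CPM, with a summed level of at most 0.432 CPM. Of 4 immune markers, PTPRC and CD3E had 0 counts, CD14 averaged 0.145 CPM and CD68 averaged 52.2 CPM. Among 4 fibroblast and pericyte markers, COL3A1 had 0 counts, while COL1A1 (mean 34.1 CPM), ACTA2 (10.6 CPM) and PDGFRB (2.95 CPM) were above 1 CPM.

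To compare levels between genes, CPM was divided by the length in kb of the GENCODE transcript used for each gene. By this measure, AK4, a mitochondrial matrix enzyme, was at 75.5 ± 6.80 CPM per kb in control cells (SD, n = 3). AK3, the other matrix enzyme, was at 15.7 ± 0.277 CPM per kb, AK5 at 10.7 ± 1.49 and the cytosolic AK1 at 1.94 ± 1.49. NT5E, AMPD2, ADK and ADA lay close together, at 41.9 ± 17.0, 33.9 ± 5.43, 32.7 ± 4.20 and 27.7 ± 4.97 CPM per kb, and the ranges of neighbors in that order overlapped over the control libraries. ADORA2B (12.2 ± 0.965) and ADORA1 (11.3 ± 1.19) also differed by less than their SDs and were above ADORA2A (5.74 ± 0.752), while AMPD3 was at 2.31 ± 0.799 CPM per kb. These levels depend on the transcript chosen for each gene.

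**Figure D1:**
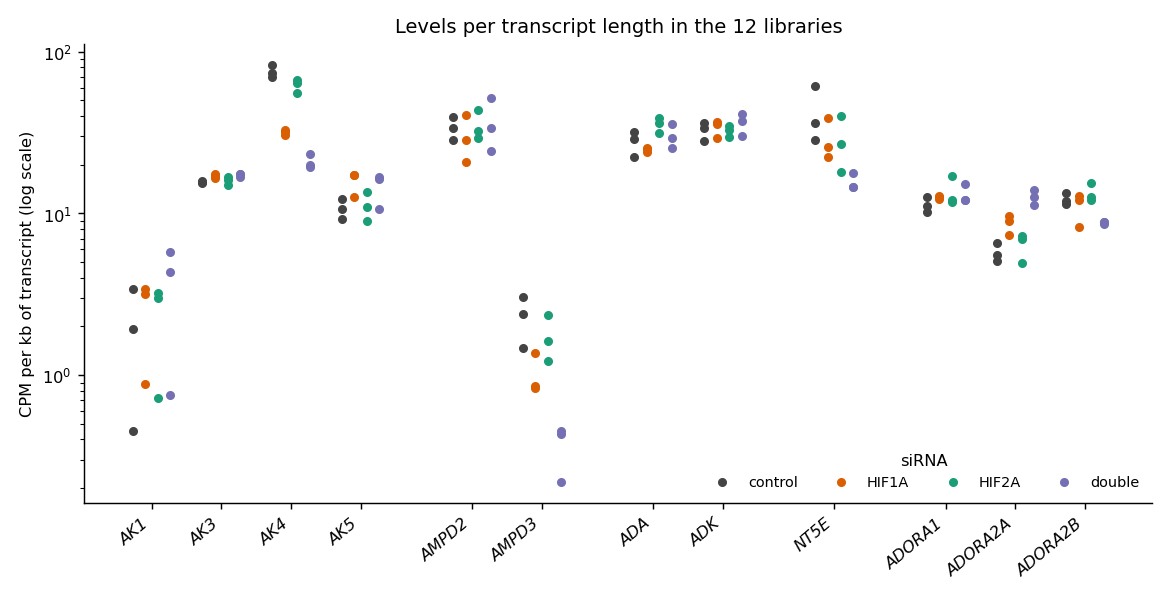
CPM per kb of transcript on a log scale for 4 adenylate kinases, AMP deaminases, ADA, ADK, NT5E and 3 adenosine receptors. Each point is 1 library, colored by siRNA group, with 3 points per group. The AK4 points drop below the AMPD2 range in the double knockdown, where AK4 averaged 20.9 CPM per kb against 17.3 for AK3.

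AK4, which moves phosphate to AMP in the mitochondrial matrix, was the member with the highest share of its variance tied to the siRNA group. Its levels in replicates 1, 2 and 3 were 568, 478 and 504 CPM with control siRNA, 210, 225 and 219 CPM with HIF1A siRNA, 440, 383 and 461 CPM with HIF2A siRNA and 160, 133 and 136 CPM in the double knockdown. The 4 groups did not overlap, in the order control, HIF2A siRNA, HIF1A siRNA, double knockdown, and siRNA group accounted for 98.3% of the variance of its log2 CPM. The p-values that follow come from edgeR's quasi-likelihood test, blocked by replicate number and adjusted by Benjamini-Hochberg over all genes tested, and a gene was called when this edgeR adjusted p was under 0.05. AK4 fell with HIF1A siRNA to 37.0 to 47.0% of control within replicate pairs (log2 fold change -1.24, standard error 0.12, edgeR adjusted p = 6.3e-05). With the HIF2A pool AK4 kept 77.3 to 91.5% of its control level, which was not called (log2 fold change -0.26, standard error 0.11, edgeR adjusted p = 0.93, unadjusted p = 0.038). In the direct comparison of the single knockdowns, AK4 was lower under the HIF1A pool (log2 fold change -0.97, standard error 0.12, edgeR adjusted p = 0.00047).

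In the double knockdown AK4 fell to 27.0 to 28.1% of control, 3.62-fold lower (log2 fold change -1.85, standard error 0.11, edgeR adjusted p = 4.5e-08). These calls, and that against HIF2A siRNA alone (log2 fold change -1.58, standard error 0.11, edgeR adjusted p = 3.0e-07), were made under every alternative tried. AK4 was also lower in the double knockdown than with HIF1A siRNA, at 59.1 to 75.9% within pairs (log2 fold change -0.62, standard error 0.10, edgeR adjusted p = 0.0068). HIF1A mRNA averaged 28.7 and 18.3 CPM in these groups, a difference that was not called. The cause of the lower AK4 level was not tested. This AK4 call was lost without the replicate block (edgeR adjusted p = 0.25), and when replicate 3 (0.44), HIF1A siRNA replicate 2 (0.077), HIF1A siRNA replicate 3 (0.054) or double knockdown replicate 3 (0.086) was left out. The interaction, which asks whether the log2 effect of both pools differed from the sum of the single effects, was -0.34 for AK4 (standard error 0.15, unadjusted p = 0.033, edgeR adjusted p = 0.999).

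AK3, which like AK4 belongs to the mitochondrial matrix and uses GTP, had no call. It stood at 67.3, 65.0 and 65.9 CPM with control siRNA, 70.2, 72.1 and 74.2 CPM with HIF1A siRNA, 70.6, 63.6 and 68.3 CPM with HIF2A siRNA and 74.3, 74.0 and 71.2 CPM in the double knockdown. The HIF1A siRNA and double knockdown libraries were above every control library, with a mean of 72.1 ± 2.01 and 73.2 ± 1.69 CPM against 66.1 ± 1.17 CPM (SD, n = 3), and no comparison was called (log2 fold change 0.13 with HIF1A siRNA, edgeR adjusted p = 0.92, and 0.15 in the double knockdown, standard error 0.10, edgeR adjusted p = 0.38). The ratio of AK4 to AK3 CPM, a change in the balance of the paralogs within each library, went from 8.45, 7.36 and 7.65 in the control replicates to between 2.96 and 3.12 with HIF1A siRNA, 6.23, 6.03 and 6.75 under the HIF2A pool and 2.15, 1.80 and 1.91 in the double knockdown. The means were 7.82 ± 0.564, 3.03 ± 0.0843, 6.34 ± 0.375 and 1.95 ± 0.181 (SD, n = 3), and the groups did not overlap. GENCODE lists 5 pseudogenes named after AK4 and 6 named after AK3, and reads that did not map uniquely were removed by the authors, so part of the reads of either gene may be missing from its count in every library. A noncoding RNA overlaps exons of AK3 on the opposite strand in GENCODE.

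AK1, the cytosolic adenylate kinase, varied mainly with the replicate number. Its levels in replicates 1, 2 and 3 were 4.23, 7.53 and 0.992 CPM with control siRNA, 7.47, 6.98 and 1.95 CPM with HIF1A siRNA, 7.07, 6.62 and 1.59 CPM with HIF2A siRNA and 9.50, 12.7 and 1.66 CPM in the double knockdown. Replicate 3 was the lowest library of every group, and replicate number took 88.3% of the variance of log2 CPM against 7.73% for siRNA. Within pairs AK1 in the double knockdown reached 167 to 225% of control, which was not called (log2 fold change 0.87, standard error 0.27, edgeR adjusted p = 0.055). It was called by DESeq2 (adjusted p = 0.024), and by edgeR in the fit of the 6 libraries compared (adjusted p = 0.015), with no filter on low counts (adjusted p = 0.042), and without control siRNA replicate 2 (adjusted p = 0.038) or without HIF2A siRNA replicate 2 (adjusted p = 0.029). The annotation has a protein-coding gene that shares exons with AK1 on the same strand, and its reads cannot be told apart from those of AK1.

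**Figure D2:**
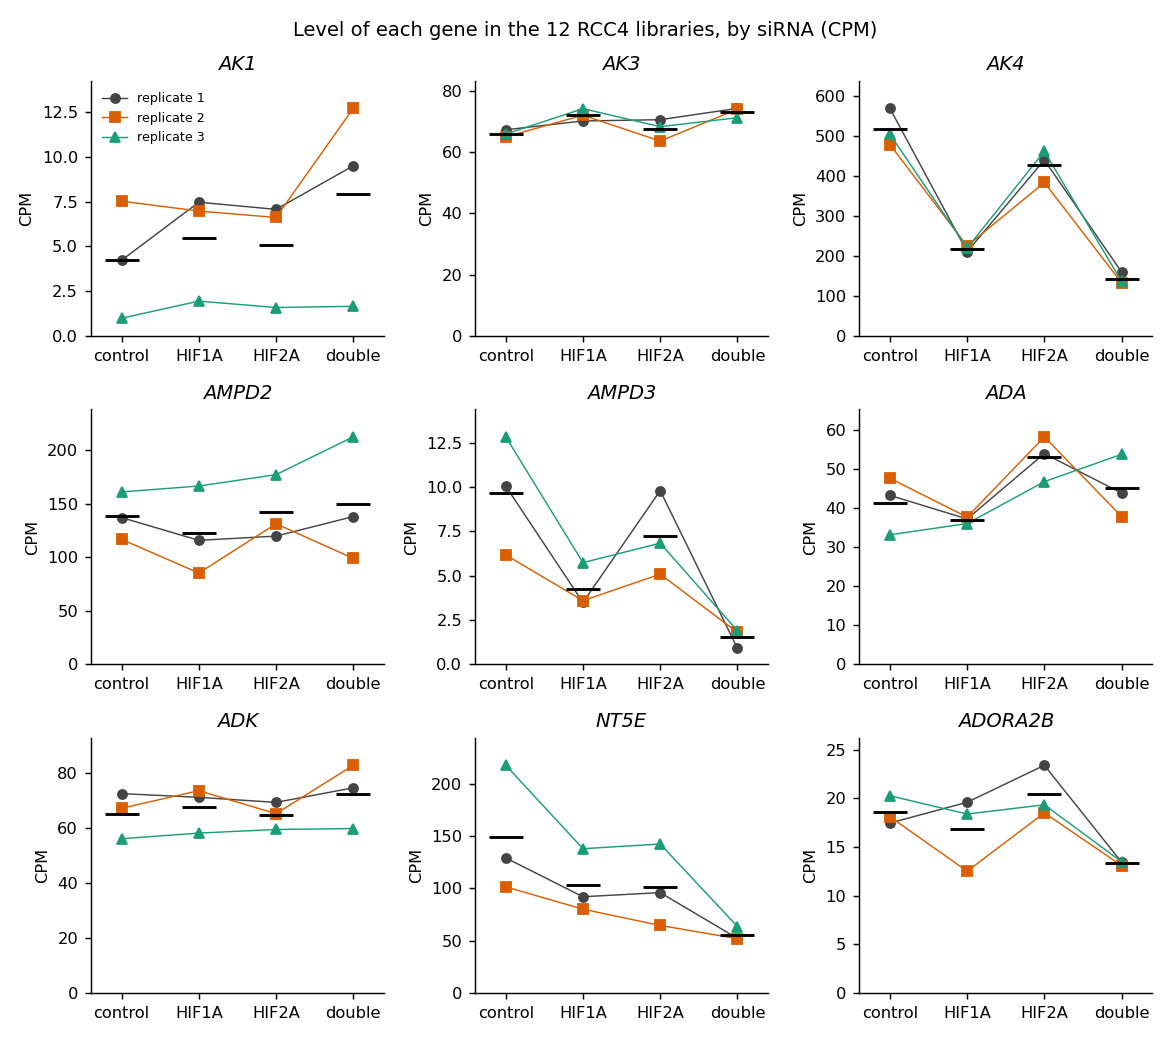
CPM of each of the 9 genes in the 12 libraries, 1 panel per gene with its own axis from 0. Symbols and lines mark the replicate number, black bars the mean of each siRNA group (n = 3). AK4 stepped down from 517 CPM in control cells to 143 CPM in the double knockdown in all 3 replicates, while AK1, AMPD2 and ADK were ordered mainly by replicate.

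The AMP deaminases AMPD2 and AMPD3 catalyze the same step, AMP to IMP. Calls were made for AMPD3 and not for AMPD2, and the difference between the genes was not tested. AMPD3 was at 10.1, 6.17 and 12.8 CPM with control siRNA, 3.50, 3.60 and 5.74 CPM with HIF1A siRNA, 9.80, 5.09 and 6.84 CPM with HIF2A siRNA and 0.910, 1.80 and 1.90 CPM in the double knockdown. The HIF1A siRNA libraries were below every control library and the double knockdown libraries below all others, while control and HIF2A siRNA overlapped. The lowest of these values rested on 18, 24 and 39 counts in the double knockdown, against 164, 123 and 207 counts in control cells. In the double knockdown AMPD3 fell to 9.05 to 29.2% of control (log2 fold change -2.64, standard error 0.34, edgeR adjusted p = 0.00016), the lowest log2 fold change of the 9 genes. It also fell against HIF2A siRNA alone (log2 fold change -2.26, standard error 0.34, edgeR adjusted p = 0.0011), a call that was lost only in the fit of the 6 libraries compared (edgeR adjusted p = 0.064).

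For HIF1A siRNA against control, AMPD3 was at 34.8 to 58.3% within pairs and missed the threshold (log2 fold change -1.15, standard error 0.27, edgeR adjusted p = 0.078). DESeq2 called it (adjusted p = 0.0083), as did edgeR with no filter on low counts (adjusted p = 0.012) and without replicate 2 (0.049), control siRNA replicate 2 (0.047) or HIF2A siRNA replicate 1 (0.035), and over all alternatives the adjusted p ran from 0.0083 to 0.74. The difference between the double knockdown and HIF1A siRNA lay at the threshold (log2 fold change -1.48, standard error 0.35, edgeR adjusted p = 0.051), and 11 of 21 alternatives called it. Among them were the fits without replicate 2 (0.030), control siRNA replicate 1 (0.048), control siRNA replicate 2 (0.046), HIF2A siRNA replicate 1 (0.023), HIF2A siRNA replicate 2 (0.020) and double knockdown replicate 2 (0.033). With HIF2A siRNA alone the AMPD3 log2 fold change was -0.38 (standard error 0.26, edgeR adjusted p = 0.95), and its interaction was -1.10 (standard error 0.46, unadjusted p = 0.030, edgeR adjusted p = 0.999).

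AMPD2 was far more abundant per length and had no call. It ranged from 117 to 161 CPM with control siRNA, from 85.4 to 167 CPM with HIF1A siRNA, from 120 to 177 CPM with HIF2A siRNA and from 99.0 to 213 CPM in the double knockdown. All groups overlapped, replicate 3 was the highest library of each group, and replicate number took 75.5% of the variance of log2 CPM. Its log2 fold changes ran from -0.26 between the single knockdowns to 0.28 between the double knockdown and HIF1A siRNA (edgeR adjusted p = 0.58 and 0.44, standard error 0.14 for both). In GENCODE, exons of GNAT2 and of a noncoding RNA overlap AMPD2 on the opposite strand. AMPD1, the muscle AMP deaminase, had 1 count in 1 of the 12 libraries.

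NT5E encodes CD73, the surface enzyme that turns extracellular AMP into adenosine, and was lower with each HIF pool in every replicate pair. Its levels were 129, 101 and 218 CPM with control siRNA, 91.9, 80.0 and 138 CPM with HIF1A siRNA, 95.9, 64.5 and 142 CPM with HIF2A siRNA and 52.2, 51.9 and 63.5 CPM in the double knockdown. Replicate 3 was the highest library of each group, so control and single knockdowns overlapped although each pair went down, and the double knockdown was below every other library. In the double knockdown NT5E fell to 29.2 to 51.2% of control (log2 fold change -1.34, standard error 0.14, edgeR adjusted p = 2.1e-05). That call was lost only without the replicate block (edgeR adjusted p = 0.061), the setting in which the spread between replicate numbers enters the error. The double knockdown was also lower than HIF1A siRNA (log2 fold change -0.84, standard error 0.14, edgeR adjusted p = 0.0067) and lower than HIF2A siRNA (log2 fold change -0.78, standard error 0.14, edgeR adjusted p = 0.0046).

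These last NT5E calls were less stable. Without the replicate block their edgeR adjusted p was 0.97 and 0.62, and the call against HIF2A siRNA was lost without replicate 1 (0.064) or replicate 3 (0.19) and in the fit of the 6 libraries compared (0.11). Against HIF1A siRNA, edgeR's adjusted p was above 0.05 without replicate 1 (0.077), replicate 3 (0.29), HIF1A siRNA replicate 2 (0.069), double knockdown replicate 1 (0.056) or double knockdown replicate 3 (0.064). Between the single knockdowns no difference was called (log2 fold change 0.06, standard error 0.12, edgeR adjusted p = 0.91). Against control siRNA, NT5E was at 63.3 to 78.9% with HIF1A siRNA (log2 fold change -0.49, standard error 0.12, edgeR adjusted p = 0.087) and at 63.6 to 74.3% with HIF2A siRNA (log2 fold change -0.55, standard error 0.12, edgeR adjusted p = 0.18), in both cases lower in 3 of 3 pairs and not called. DESeq2 called both (adjusted p = 0.017 and 0.0095), and edgeR called the HIF1A siRNA comparison without replicate 2 (0.029) or HIF2A siRNA replicate 2 (0.025). GENCODE has no other gene that overlaps the exons of NT5E, AK4, AMPD3 or ADORA2B.

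ADA and ADK, which take adenosine to inosine and to AMP, were not called in any comparison. ADA was at 43.3, 47.7 and 33.2 CPM with control siRNA, 37.3, 37.8 and 36.1 CPM with HIF1A siRNA, 54.0, 58.3 and 46.8 CPM with HIF2A siRNA and 43.9, 37.9 and 53.8 CPM in the double knockdown. Its HIF1A siRNA libraries lay below all HIF2A siRNA libraries, at 64.7 to 77.1% within pairs (log2 fold change -0.52, standard error 0.13, edgeR adjusted p = 0.082), a difference called by DESeq2 (adjusted p = 0.030), in the fit of the 6 libraries compared (0.045) and without control siRNA replicate 1 (0.036). With HIF2A siRNA against control, ADA was at 122 to 141% within pairs (log2 fold change 0.37, standard error 0.13, edgeR adjusted p = 0.76, unadjusted p = 0.013). Exons of PKIG overlap ADA on the opposite strand in GENCODE. ADK lay between 56.0 and 82.7 CPM in all 12 libraries, its groups overlapped in every comparison, and its log2 fold changes ran from 0.00 to 0.15 (standard errors 0.10 to 0.11). In GENCODE a pseudogene named after another gene, MRPL35P3, overlaps exons of ADK on the same strand and a noncoding RNA does so on the opposite strand. Replicate 3 was the lowest ADK library of each group, and replicate number took 74.3% of the variance of log2 CPM.

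ADORA2B, the low-affinity adenosine receptor that raises cyclic AMP, was lowest in the double knockdown. It stood at 17.5, 18.1 and 20.3 CPM with control siRNA, 19.6, 12.5 and 18.4 CPM with HIF1A siRNA, 23.4, 18.5 and 19.3 CPM with HIF2A siRNA and 13.4, 13.1 and 13.5 CPM in the double knockdown. The double knockdown libraries were below all control and HIF2A siRNA libraries and overlapped those with HIF1A siRNA, where replicate 2 was low. ADORA2B fell against HIF2A siRNA, to 57.4 to 70.7% within pairs (log2 fold change -0.61, standard error 0.16, edgeR adjusted p = 0.0496), a value just inside the threshold that 15 of 21 alternatives lost. The adjusted p over the alternatives ran from 0.013 to 0.36, the highest without the replicate block, and among fits that left out 1 library it was above the threshold for every library except control siRNA replicate 1 and HIF1A siRNA replicate 2, with values up to 0.24 (without double knockdown replicate 1). Against control siRNA it was at 66.5 to 77.0% (log2 fold change -0.48, standard error 0.16, edgeR adjusted p = 0.072), which DESeq2 (adjusted p = 0.048), the fit of the 6 libraries compared (0.035) and the fit without HIF2A siRNA replicate 2 (0.043) called.

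ADORA2A, the high-affinity receptor that also raises cyclic AMP and is no member of the 9, was highest in the double knockdown. It was at 14.0, 16.6 and 12.9 CPM with control siRNA, 18.6, 24.5 and 22.8 CPM with HIF1A siRNA, 12.5, 17.6 and 18.4 CPM with HIF2A siRNA and 32.1, 28.5 and 35.5 CPM in the double knockdown. The HIF1A siRNA libraries were above every control library. Neither this difference nor that between the double knockdown and HIF1A siRNA was called. The double knockdown libraries were above all others, and ADORA2A rose against control (log2 fold change 1.15, standard error 0.16, edgeR adjusted p = 0.00033) and against HIF2A siRNA (log2 fold change 1.01, standard error 0.16, edgeR adjusted p = 0.0018). The first of these calls was made under every alternative, and the other was lost only without replicate 1 (log2 fold change 0.81, adjusted p = 0.056). Per length, ADORA2B was above ADORA2A in control cells (12.2 against 5.74 CPM per kb) and below it in the double knockdown (8.76 ± 0.144 against 12.7 ± 1.38 CPM per kb, SD, n = 3). ADORA1 was at 11.3 to 13.6 CPM per kb over the groups with no call, and ADORA3 had 5 counts in all 12 libraries.

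All 9 genes passed the expression filter of both fits. With HIF1A siRNA against control, 1 of 9 was called (AK4), where 1.17% of the 12830 genes tested were called. With HIF2A siRNA against control, edgeR called 0 of 9 and 0.0857% of all genes, and DESeq2 called 1 of the 9 (NT5E). With that pool 3 of the 9 had an unadjusted p under 0.05 (AK4, ADA and NT5E), as did 690 of the 12830 genes. HIF1A against HIF2A siRNA gave 1 of 9 (AK4), with 1.5% of all genes called. The double knockdown gave 3 of 9 against control (AK4, AMPD3 and NT5E), with 10.3% of 13000 genes called, 2 of 9 against HIF1A siRNA (AK4 and NT5E), with 1.4% called, and 4 of 9 against HIF2A siRNA (AK4, AMPD3, NT5E and ADORA2B), with 4% called. All of these calls were lower levels. Comparisons against control share the control libraries and those of the double knockdown share its libraries, so the counts are not independent of each other. The 9 genes were chosen with earlier results of these data known. A count above the share of all genes therefore cannot show that such genes respond more often than others.

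The interaction was called by edgeR for 0 of 9 genes and for 0% of the 13000 genes, with 2 of the 9 at an unadjusted p under 0.05 (AK4 and AMPD3) and 318 of all genes. DESeq2 called 11 of all genes and 0 of the 9. The median log2 fold change of the 9 genes was -0.16 with HIF1A siRNA, 0.04 with HIF2A siRNA and 0.06 in the double knockdown against control, where the median of all genes tested was 0.00, 0.01 and 0.00.

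**Figure D3:**
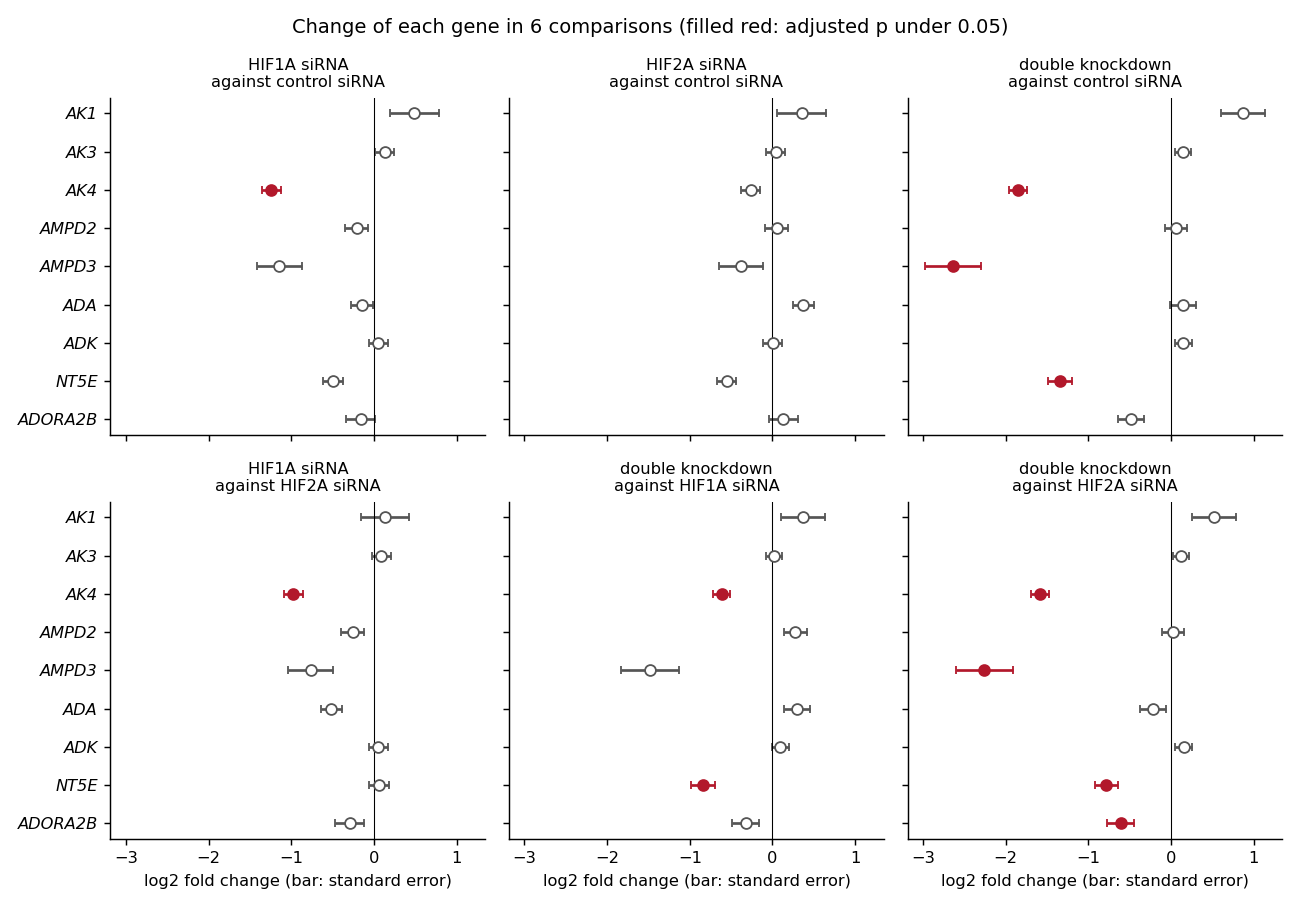
The log2 fold change of the 9 genes in 6 comparisons from edgeR, with bars for the standard error. Filled red points have an adjusted p under 0.05. AK4 is filled in 5 of the 6 panels, and the AMPD3 point lies farthest to the left in the double knockdown panels, with the widest bars.

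The other genes of adenine nucleotide and adenosine metabolism were listed by role, 59 in all, of which 58 were in the count tables and 42 were tested in each fit. None was called with HIF1A or with HIF2A siRNA against control by edgeR, where 7 and 0 had an unadjusted p under 0.05, against 940 and 690 of all 12830 genes (DESeq2 called 2 and 0 of the 42). None was called in the double knockdown against HIF1A siRNA, where 2 had such a p, against 1585 of all 13000 genes (DESeq2 called 1 of the 42). HIF1A against HIF2A siRNA gave 0 calls by edgeR and by DESeq2, with 9 of the 42 at an unadjusted p under 0.05 and 1311 of all 12830 genes. The double knockdown against control gave 6 of 42, where 10.3% of all 13000 genes were called. There 14 of the 42 had an unadjusted p under 0.05, against 3291 of all genes. Among the 6 called, ADORA2A and AK5 rose, and ENPP3, PRKAA2, HPRT1 and ENPP1 fell. Against HIF2A siRNA, 10 of the 42 and 2317 of all 13000 genes had an unadjusted p under 0.05. That comparison gave 5 of 42, with 4% of all genes called. ADORA2A was higher and ENPP3, PRKAA2, HPRT1 and ADSS were lower. Of these, the HPRT1 call was lost in 15 of 21 alternatives (edgeR adjusted p up to 0.80), the ENPP3 call in 8 (up to 0.53) and the PRKAA2 call in 3 (up to 0.13), in each case with the highest value in the fit without the replicate block. The interaction gave 0, with 0 at an unadjusted p under 0.05 and 0 by DESeq2. This list, too, was chosen with earlier results of these data known.

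PRKAA2, the α2 catalytic subunit of the AMP-activated protein kinase, was at 93.5, 72.9 and 97.4 CPM with control siRNA, 51.5, 54.6 and 67.3 CPM with HIF1A siRNA, 71.1, 95.6 and 81.2 CPM with HIF2A siRNA and 44.9, 45.0 and 57.2 CPM in the double knockdown. Both groups that received HIF1A siRNA were below every control library. PRKAA2 fell in the double knockdown against control (log2 fold change -0.85, standard error 0.14, edgeR adjusted p = 0.0012), a call made under every alternative. With HIF1A siRNA alone its log2 fold change was -0.61 (standard error 0.16, edgeR adjusted p = 0.12). The other 5 subunits tested had no call in any comparison.

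ENPP1 and ENPP3 are surface enzymes that cleave nucleotides such as ATP to AMP, upstream of CD73. ENPP3 was low, at 2.85 to 9.07 CPM with control siRNA and 0.730 to 3.39 CPM in the double knockdown, and its log2 fold change was -1.68 (standard error 0.36, edgeR adjusted p = 0.0082). It was lost without the replicate block (0.29) and without replicate 3 (0.094), control siRNA replicate 1 (0.060) or double knockdown replicate 2 (0.055). ENPP1 fell by 0.54 on the log2 scale (standard error 0.16, edgeR adjusted p = 0.043), and 10 of 21 alternatives lost that call. ENTPD1, which encodes CD39, had no call and was at 23.3 ± 3.35 CPM with control siRNA and 27.8 ± 3.23 CPM in the double knockdown (SD, n = 3).

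HPRT1, of purine salvage, fell by 0.45 on the log2 scale in the double knockdown against control (standard error 0.10, edgeR adjusted p = 0.010), which was lost without the replicate block (0.35), replicate 1 (0.14), replicate 3 (0.17) or double knockdown replicate 1 (0.088). The AK5 rise of 0.43 (standard error 0.12, edgeR adjusted p = 0.040) was lost in 14 of 21 alternatives. AK5 was also above every control library with HIF1A siRNA alone, at 136 to 163% of control within pairs. That difference was not called (log2 fold change 0.55, standard error 0.14, edgeR adjusted p = 0.11). The ADSS fall against HIF2A siRNA (log2 fold change -0.55, standard error 0.14, edgeR adjusted p = 0.048) was lost in 15 of 21. ADSS makes the AMP precursor adenylosuccinate from IMP. None of the 10 genes of de novo purine synthesis was called in any comparison. The median log2 fold change of the 42 genes was 0.02 in the double knockdown against control, with a range from -2.73 to 1.15. The lowest value belonged to a gene that was not called. CECR1 (ADA2), the secreted adenosine deaminase, had 0 counts in all 12 libraries, and a count of 3 would have been 0.146 to 0.226 CPM.

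**Figure D4:**
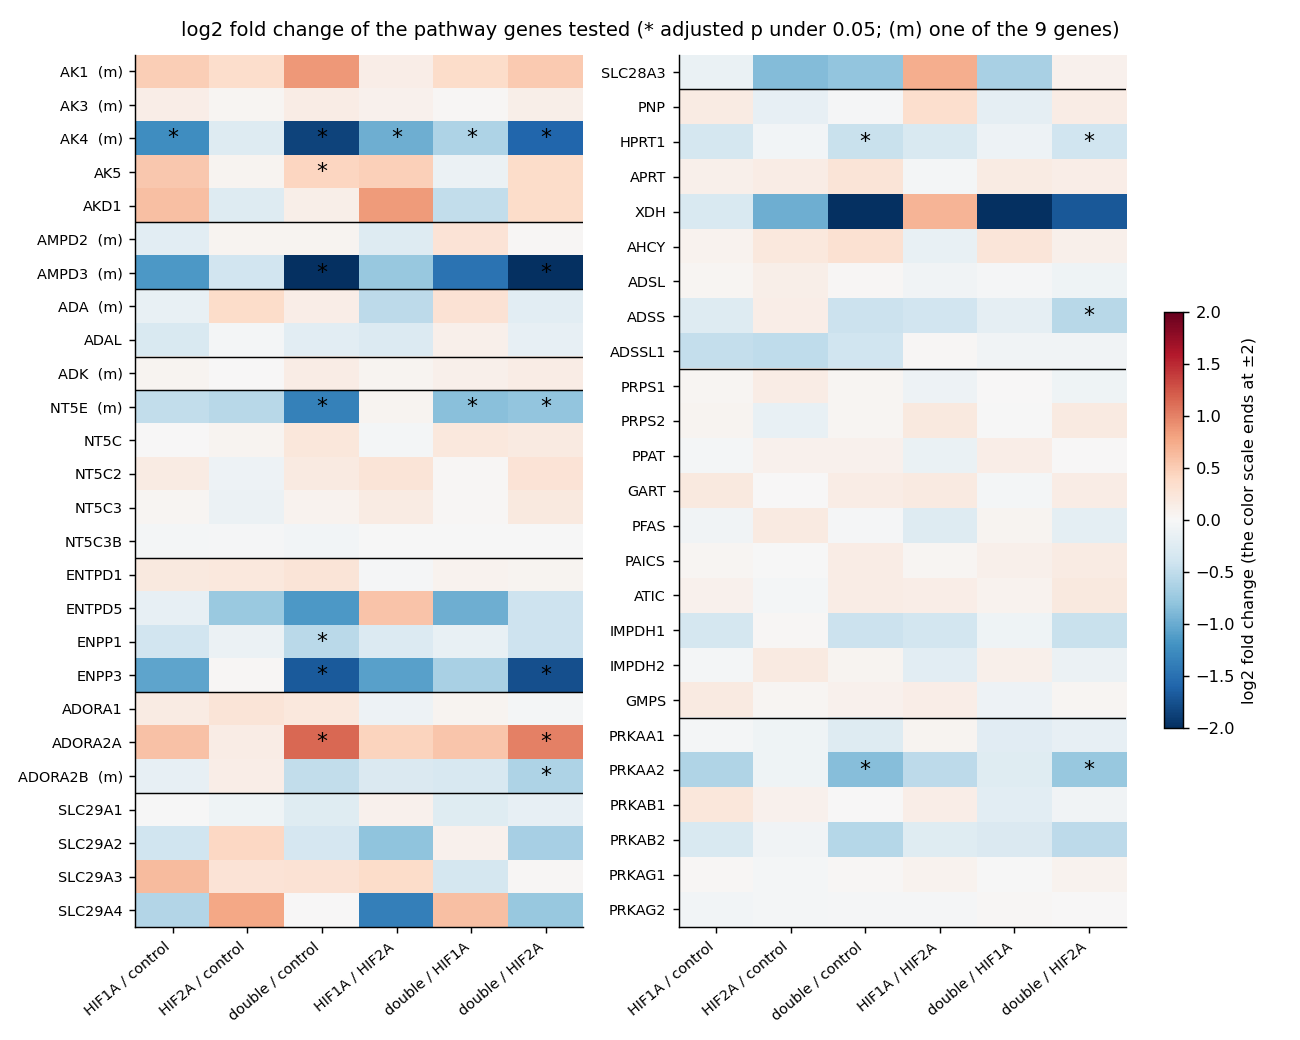
The log2 fold change of the 9 genes (m) and the 42 other pathway genes tested, by role, in 6 comparisons; red is higher and blue lower in the group named first, and stars mark an adjusted p under 0.05 in edgeR. Stars gather in the columns of the double knockdown against control and against HIF2A siRNA, where 10.3% and 4% of all genes were called. Against HIF1A siRNA only AK4 and NT5E have a star, and AK4 is the only gene with a star in the HIF1A against control column.

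By the root mean square difference of log2 CPM, centered on its mean over the 12 libraries, the genes most like AK4 among 12050 were ZNF395 (0.18), TMEM45A (0.23) and WDR54 (0.23), where the median over all genes was 0.81. ZNF395 averaged 402 CPM with control siRNA, 181 with HIF1A siRNA, 372 with HIF2A siRNA and 116 in the double knockdown. AMPD3 was most like C7orf60 (0.42), KRT81 (0.43) and AK4 itself (0.43), with a median of 0.99. For NT5E the nearest were NLRP1 (0.17), CD274 (0.21) and KLHDC7A (0.23), with a median of 0.66. CD274, which encodes PD-L1, went from 35.4 CPM with control siRNA to 18.1 CPM in the double knockdown. ADORA2B, with the flattest pattern among the called members, was nearest to ZBTB7B (0.15), FUT4 (0.16) and THBD (0.16), with a median of 0.40. These differences cover siRNA and replicate number together.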

How the data were processed

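Polyadenylated RNA of RCC4 cells was measured in 12 libraries, made with a directional kit. Per the methods and the submitters' processing notes, the authors trimmed adaptors with Trim Galore (0.3.3), aligned reads to hg19 (GRCh37) with HISAT2 (2.05), filtered out fragments without a unique map position using Picard (2.0.1), counted fragments per gene with HTSeq (0.5.4p3) and deposited raw counts per gene symbol, with no normalization. Whether the counting used strand is not given in the sources used here, so opposite-strand overlaps are uncertain. From the deposited counts, edgeR's quasi-likelihood test (4.0.16, R 4.3.3) was run with TMM normalization, edgeR's filter (at least 10 counts after scaling in at least as many libraries as there are in the smallest group, total at least 15) and a block for replicate number, because conditions were paired by replicate in the study. The control, HIF1A and HIF2A siRNA libraries (9) were fitted over 12830 genes, and all 12 libraries over 13000 genes for the double knockdown and the interaction. Standard errors are the log2 fold change divided by the square root of F. Likeness and shares of variance used log2 of CPM plus 0.5, and percentages within pairs and the AK4 to AK3 ratio used CPM as they were. Lengths are those of canonical GENCODE v44 transcripts (GRCh38), and sequences are from RefSeq.

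Libraries with the same replicate number deviated together from their group means, with correlations across genes from 0.0991 to 0.813 (17 of 18 over 0.1), against -0.724 to 0.527 for different numbers (9 of 36 over 0.1). Control siRNA replicate 2 correlated more with HIF2A siRNA replicate 1 (0.527) than with HIF2A siRNA replicate 2 (0.231). So did HIF1A siRNA replicate 2 (0.320 against 0.221) and double knockdown replicate 2 (0.483 against 0.224). Control siRNA replicate 1 was closer to HIF2A siRNA replicate 2 (0.130) than to HIF2A siRNA replicate 1 (0.0991). Replicate 1 of HIF1A siRNA and of the double knockdown went the other way (0.619 against 0.134 and 0.471 against 0.0879). Whether HIF2A siRNA replicates 1 and 2 are matched as numbered was not tested, and blocked tests with that group rest on it. Replicates of a group differed by more than sampling noise (chi-square per degree of freedom 16.3 to 122), so none was merged. Named were the 9 genes, the siRNA targets, CA9, other pathway genes called in any comparison, close relatives by level, and the 3 genes (at least 1 CPM on average) most like each member called. The 9 genes and the lists were chosen with earlier results of these data known. Alternatives were DESeq2 (1.42.0), its size factors in edgeR, no filter on low counts, a minimum of 10 counts in every library, a fit without the replicate block, other sets of libraries in the fit, and each replicate number and library left out. A further pathway gene is not reported here. Single-cell data of the study were not used here.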

Additional observations from a re-analysis of the deposited data

How the results depend on the processing

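Of 1260 log2 fold changes of the 9 genes under the alternatives, 1146 kept their direction and their side of the threshold, 32 lost a call, 31 gained one and 51 changed sign. Every sign change was in a value that was not called. ADK with HIF2A siRNA against control, at 0.00, became -0.0016 with DESeq2 size factors, -0.0071 with at least 10 counts in every library, -0.0050 without the replicate block, -0.0016 with DESeq2, -0.0071 with all 12 libraries in the fit and -0.00050 with the 6 libraries compared, and lay between -0.0591 and 0.0424 when a replicate or library was left out. The other sign changes came from leaving out a replicate or library, which gave ADORA2B -0.32 to 0.0068 with HIF1A siRNA and -0.0259 to 0.24 with HIF2A siRNA, AMPD2 -0.0873 to 0.18 with HIF2A siRNA, -0.11 to 0.20 in the double knockdown against control and -0.11 to 0.24 against HIF2A siRNA, ADA -0.15 to 0.35 in the double knockdown against control and -0.31 to 0.11 for the interaction, AK3 -0.0240 to 0.0605 when the double knockdown was set against HIF1A siRNA and -0.0565 to 0.0396 for the interaction, AK1 -0.60 to 0.34 for the interaction, and NT5E -0.0454 to 0.14 between the single knockdowns.

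The number of the 9 genes called with HIF1A siRNA against control (1) became 2 with no filter and 3 with DESeq2, with HIF2A siRNA (0) 1 with DESeq2, and between the single knockdowns (1) 2 with DESeq2 and 2 with the 6 libraries compared. The double knockdown gave 5 against control (3) with DESeq2 and 5 with the 6 libraries, 0 against HIF1A siRNA (2) without the replicate block, and against HIF2A siRNA (4) 2 without the block and 1 with the 6 libraries. Over fits that left out a replicate or library, these counts ran from 1 to 3, 0 to 0, 1 to 2, 3 to 5, 0 to 3 and 2 to 4 in the same order, with 0 for the interaction. In those fits the calls over all genes also moved, from 66 to 219, 1 to 33, 90 to 351, 302 to 2307, 26 to 442 and 158 to 672. Without replicate 3, HIF1A siRNA replicate 2 or double knockdown replicate 3 the count of the 9 against HIF1A siRNA was 0. Without replicate 1 or 3 the count of the 9 against HIF2A siRNA was 2. Single calls changed in further settings. For the double knockdown against control, NT5E was lost without the block (edgeR adjusted p = 0.061) and AK1 was gained with no filter (0.042). Against HIF1A siRNA, AMPD3 was gained with DESeq2 size factors (0.0498), no filter (0.0088) and at least 10 counts in every library (0.049). It was also gained with DESeq2 (adjusted p = 0.0025) and the 6 libraries (edgeR adjusted p = 0.012).

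Of the 42 other pathway genes, HIF1A siRNA against control (0) gave 1 with no filter, 2 with DESeq2, 2 with 12 libraries and 1 with 6. The double knockdown gave 2 without the block and 11 with 6 libraries against control (6), 1 with DESeq2 and 1 with 6 libraries against HIF1A siRNA (0), and 1 without the block and 1 with 6 libraries against HIF2A siRNA (5). Leaving out a replicate or library gave 0 to 2, 0 to 0, 0 to 2, 2 to 10, 0 to 0 and 1 to 5, in the fits whose calls over all genes are given above. Of the 231 values of the genes called there, 74 lost the call and 0 changed sign. The AK4 to AK3 ratio stayed at 7.50 to 8.05, 2.98 to 3.06, 6.13 to 6.49 and 1.85 to 2.03 in the 4 groups with a replicate left out.

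Over all genes, calls against control changed from 150 to 41 with HIF1A siRNA, from 11 to 1 with HIF2A siRNA and from 1336 to 195 in the double knockdown without the replicate block, and to 236, 58 and 1850 with DESeq2. For the double knockdown the fits of 6 libraries moved the calls over all genes from 1336 to 2609 against control, from 182 to 656 against HIF1A siRNA and from 520 to 164 against HIF2A siRNA, and those without the block moved the last pair to 8 and 90. Apart from the changes named, the replicate block changed no call of the 9 genes. The cause of these changes was not tested. AK1 and AMPD3 rested on 1170 and 1201 counts over the 12 libraries, which limits their precision.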
